A study of Mus musculus with 6 samples.

Results

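Mitochondrial ribosomal protein genes encode the protein subunits of the ribosome inside mitochondria. They were taken from the deposited comparison as the protein coding genes named *Mrpl* or *Mrps* followed by a digit, which gave 78 of 19079 genes, 49 named *Mrpl* and 29 named *Mrps*. The RNA came from C57BL/6 mouse ventricles at postnatal day 10. The 4 *Runx1* OE mice carried Myh6-CreER and a Rosa-Runx1 allele, and the 2 Myh6-CreER controls carried the Cre alone. All 6 mice had received tamoxifen on postnatal days 0 and 1, so the Cre and the drug were shared by both groups. Myh6-CreER is active in cardiomyocytes, whereas the tissue sequenced was the ventricle with all of its cell types. The labels speak of left ventricles in one field and of whole ventricles in another. The design text calls the mice littermates without saying which shared a litter. The study's methods state that every experiment used both sexes, but no source used here gives the sex of each mouse.

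Mitochondria keep a small genome that encodes core subunits of the respiratory chain and ATP synthase, and these are translated on a dedicated ribosome. The RNA of that ribosome is transcribed from mitochondrial DNA, whereas each of its proteins is encoded in the nucleus, translated in the cytosol and imported. Some of these proteins descend from proteins of the bacterial ribosome and others were added during the evolution of mitochondria. The heart is rich in mitochondria, and in people inherited defects of several of these genes cause cardiomyopathy.

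The values were the authors' mean of each group, in normalized counts (counts divided by a size factor per library), and the log2 ratio is that of the *Runx1* OE mean over the control mean. Values of single mice were not used here, because no source pairs the names of those columns with the samples. What a single library could reach was bounded from the deposited geometric mean and maximum. *Runx1* itself averaged 16622 normalized counts in *Runx1* OE and 40.2 in controls, a log2 ratio of 8.69 ± 0.46 (SE). The X-linked *Xist*, which is made in female cells, averaged 4584 in *Runx1* OE and 8.92 in controls, and neither control could exceed 17.8. Its log2 ratio was 9.01 ± 1.57 (SE), and its highest library held about 40.9% of the *Runx1* OE total. These means do not show whether every *Runx1* OE mouse was female. Sex and genotype therefore cannot be told apart in this comparison of group means.

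Of the cardiomyocyte markers, *Myh6* averaged 110040 in *Runx1* OE and 164720 in controls. The 7 cardiomyocyte markers summed to 296800 and 374900, and 4 of them were at least 20% lower. *Myl2* and *Tnni3* went the other way, with log2 ratios of 0.10 and 0.03. The 3 atrial markers (*Myl7*, *Myl4*, *Sln*) were low but higher in *Runx1* OE, with sums of 348.2 and 113.1. The 4 endothelial markers summed to 15470 and 17070, the 4 fibroblast markers to 19820 and 20500, the 4 smooth muscle and pericyte markers to 14700 and 15720, the 3 macrophage markers to 818.9 and 931.7, and the 3 red blood cell markers to 66680 and 60550, and each of these markers was above the minimum used below. *Tcf21*, at a log2 ratio of 0.33, was the only fibroblast marker with the higher mean in *Runx1* OE. *Tagln*, at 0.57, was the only such marker of smooth muscle and pericytes. In such bulk tissue, fewer cells of a type and less RNA per cell cannot be told apart. The part of these differences in the ratios below was not tested.

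The mitochondrial ribosomal protein genes were slightly higher in *Runx1* OE ventricles as a list, by amounts that few single genes carried beyond their error. Set against the highest value its controls could have had, most members were not higher. That bound can only lower a ratio, and its median log2 ratio was -0.11 for the members and -0.17 for all genes. Of the 78 genes, 64 (82.1%) had the higher mean in *Runx1* OE, where 51.9% of the 15181 genes that averaged 10 or more normalized counts did so. All 78 passed this minimum. Their median log2 ratio was 0.10, with quartiles at 0.03 and 0.16, beside a median of 0.01 for all genes. Summed over the list, the means were 52010 normalized counts in *Runx1* OE and 48720 in controls, which is 6.75% more. The 12075 genes in the same range of means as the members had 51.2% above 0 and a median of 0.01. They were not matched in level, since the range starts at 38.3 for *Mrpl23*, while the next lowest member, *Mrpl21*, averaged 191. Their median mean was 331.3, beside 571.8 for the members. The 78 values come from the same 6 libraries and are not independent of each other.

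**Figure D1:**
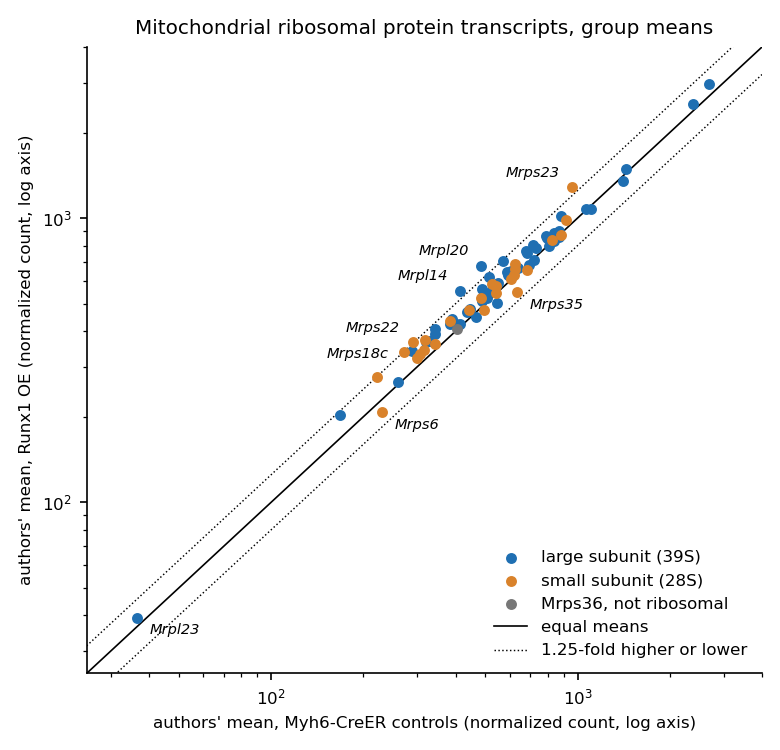
Authors' mean of each mitochondrial ribosomal protein gene in Myh6-CreER controls (horizontal) and *Runx1* OE (vertical), in normalized counts on log axes, with 1 point per gene coloured by subunit. The solid line marks equal means and the dotted lines a mean 25% higher or 20% lower. Of the 78 points, 64 lie above the solid line, 5 beyond the upper dotted line and 0 beyond the lower one.

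A ratio 25% above or 20% below the controls (0.322 on the log2 scale, either way) was counted as a difference, since no test per sample could be run. By this rule 5 of the 78 genes were higher, namely *Mrpl20*, *Mrps23*, *Mrpl14*, *Mrps22* and *Mrps18c*. This is a smaller share than among all genes, of which 13.9% were higher by as much. No member was at least 20% lower, against 10.6% of all genes. Of the 12075 genes in the same range of means, 1306 were at least 25% higher and 1064 at least 20% lower. The list lay in a narrow band, from -0.21 for *Mrps35* to 0.49 for *Mrpl20*. Its standard deviation between genes was 0.126 on the log2 scale, against 0.439 for all genes and 0.361 for genes in the same range of means.

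The error of each ratio was computed from the deposited means alone, after the values had been seen, with a gamma model whose spread between libraries was moderated over 15172 genes. The median SE of the members was 0.13, larger than their median ratio. After Benjamini-Hochberg adjustment 0 members passed 0.05 in either direction, with 1.09% of all genes higher and 0.765% lower. The smallest adjusted p of a member was 0.127, for *Mrps23*. Each of the 281 genes that passed had a larger difference than any member, the smallest being 0.4905 on the log2 scale in either direction. At an unadjusted p under 0.05, 4 members were higher (*Mrps23*, *Mrpl20*, *Mrpl14* and *Mrpl55*) and 0 lower, with 6.3% of all genes higher and 6.7% lower. The 95% interval of 16 members lay wholly between 20% lower and 25% higher, and that of 64 members within 1.5-fold either way. For 54 members the interval still reached a mean 25% higher, and for 13 a mean 20% lower.

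**Figure D2:**
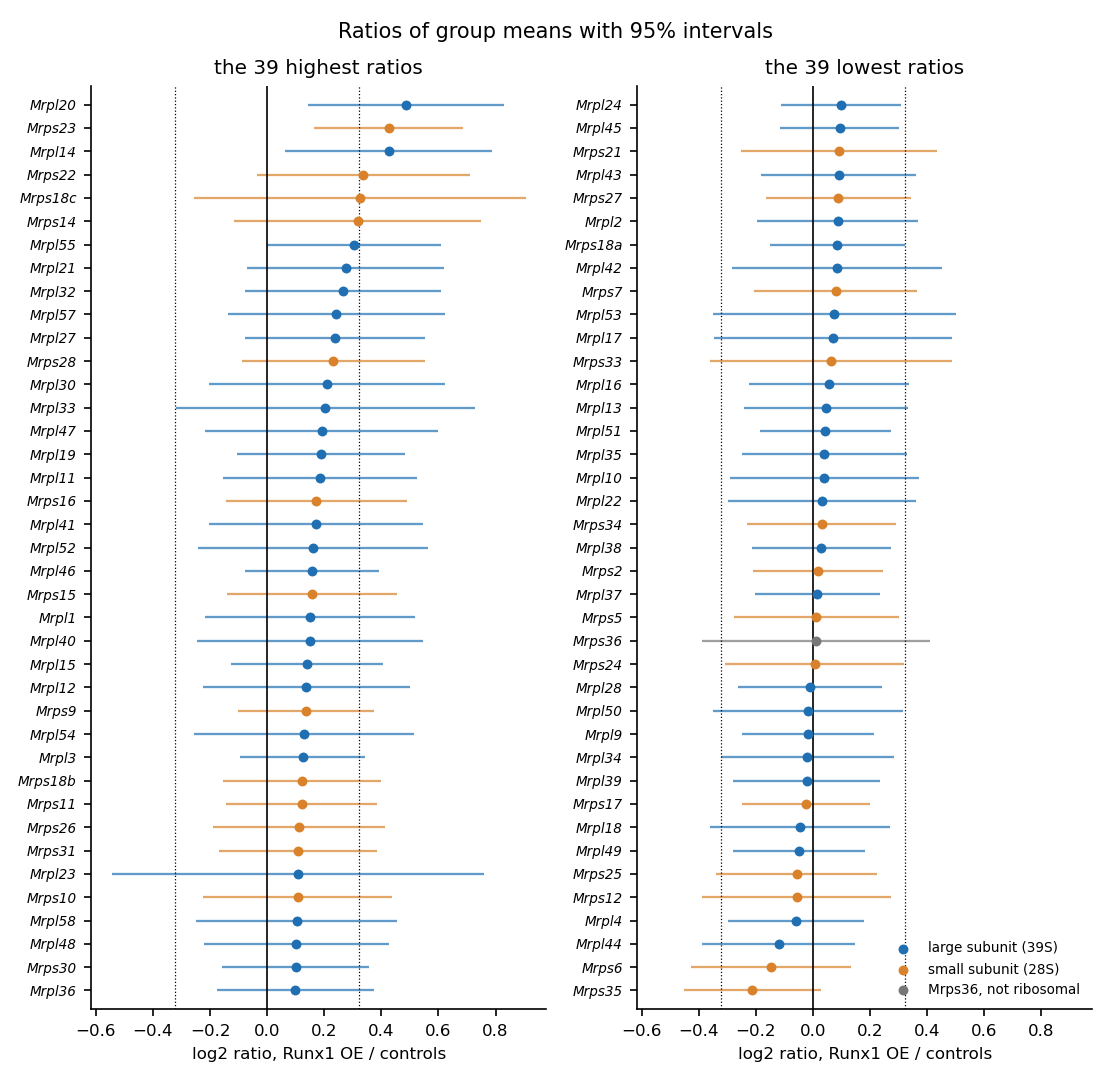
Log2 ratio (horizontal, *Runx1* OE mean over control mean) of the 78 genes (rows), ordered from high to low in 2 panels, with points coloured by subunit and lines for the 95% interval of the gamma model. Dotted lines mark 25% higher and 20% lower. The intervals of *Mrps23*, *Mrpl20*, *Mrpl14* and *Mrpl55* exclude 0, the last with a lower limit of 0.000773, and those of the other 74 include it.

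*Mrpl20* (ENSMUSG00000029066, chr4:155887335-155894435 on GRCm39, plus strand) encodes the counterpart of a bacterial protein that is needed early in assembly of the large subunit. It had the largest ratio of the list. Its mean was 680 normalized counts in *Runx1* OE and 485 in controls, a log2 ratio of 0.49 ± 0.15 (SE) with a 95% interval from 0.14 to 0.83 and an adjusted p of 0.191. No library exceeded 854, and the controls lay between 389 and 582. The deposited means left no room for any *Runx1* OE library to reach a control. The same held, on the higher side, for 6.19% of all genes.

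*Mrps23* (chr11:88095176-88102345, plus strand), an addition of the mitochondrial small subunit, averaged 1286 and 958 normalized counts. Its log2 ratio was 0.43 ± 0.11 (SE, 95% interval 0.16 to 0.69), and the groups could not overlap, with the controls between 840 and 1076. *Mrpl20* and *Mrps23* were also the members that stayed over 25% higher when their highest library was taken off the *Runx1* OE total, at 0.36 each.

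*Mrpl14* (chr17:45996373-46010480, plus strand) encodes a protein at the face between the subunits, where the assembly factor MALSU1 binds the immature large subunit. It averaged 556 and 414 normalized counts, a log2 ratio of 0.42 ± 0.16 (SE, 95% interval 0.06 to 0.79, adjusted p = 0.297). Its controls could lie anywhere from 326 to 502, so overlap between the groups was possible. Its exons share sequence with *Tmem63b* on the other strand, which started 7 bp away and had a log2 ratio of 0.02. *Malsu1* itself averaged 290 and 203 normalized counts, 0.51 ± 0.16 on the log2 scale with an adjusted p of 0.179, and its groups could not overlap.

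*Mrps22* (chr9:98470779-98483732, minus strand), a mitochondrial addition whose loss causes cardiomyopathy in people, averaged 366 and 290 normalized counts. Its log2 ratio was 0.34 ± 0.16 (SE) with an interval from -0.04 to 0.71. *Mrps18c* (chr5:100946493-100955417, plus strand), a relative of bacterial S18, averaged 339 and 271. Its ratio of 0.33 ± 0.26 (SE) was among the least certain of the list. Up to 36.4% of its *Runx1* OE total could come from 1 library, and against its higher possible control it was -0.14. Just inside the 25% limit were *Mrps14* at 0.32 ± 0.19 (SE, means 276 and 221) and *Mrpl55* at 0.30 ± 0.13 (SE, means 706 and 572). *Mrpl21* followed at 0.27 ± 0.15 (SE, means 203 and 167). *Mrps14* encodes a small subunit protein shared with bacteria, and in people a defect of it has been linked to hypertrophic cardiomyopathy.

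At the other end, 14 members had the lower mean in *Runx1* OE, none by 20%. *Mrps35* (chr6:146944205-146975489, plus strand), a mitochondrial addition of the small subunit, had the lowest ratio. It averaged 549 normalized counts in *Runx1* OE and 636 in controls, -0.21 ± 0.11 on the log2 scale (SE, 95% interval -0.45 to 0.03, adjusted p = 0.454). Its groups could not overlap, since neither control could be under 585. *Mrps6*, a counterpart of bacterial S6, averaged 208 and 230, a log2 ratio of -0.15 ± 0.12 (SE). *Mrpl44*, whose protein has a fold of the RNase III family and whose loss causes infantile cardiomyopathy in people, averaged 501 and 545, a ratio of -0.12 ± 0.12 (SE). The next 5, *Mrpl4*, *Mrps12*, *Mrps25*, *Mrpl49* and *Mrpl18*, lay between -0.06 and -0.05, and the interval of each included 0.

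Groups that could not overlap were found in 5 higher members of 78 (6.19% of all genes were higher in this way) and in 1 lower member (6.37% of all genes). The share of higher members was thus close to that of all genes. Beside *Mrpl20* and *Mrps23*, the higher ones were *Mrpl46*, *Mrpl24* and *Mrpl45*, with small ratios of 0.16, 0.10 and 0.09. *Mrpl46* averaged 369 and 331 normalized counts, and its controls lay between 321 and 340. *Mrpl24* averaged 785 and 734, and *Mrpl45* 849 and 796. These 3 genes were named after their values had been seen. Their intervals in the gamma model included 0, from -0.08 to 0.39, -0.11 to 0.31 and -0.12 to 0.30. The adjusted p-values of that model were 0.601, 0.730 and 0.742. Their spread between libraries was 0.028, 0.033 and 0.032 on the log2 scale, under the members' median of 0.156. With so little spread, groups can lie apart at a small ratio. A spread estimated from so few libraries is imprecise, and whether these were low by chance was not tested.

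The controls were the weak side of the comparison, with 2 libraries. Against the highest value that a control could have had, gene by gene, the median ratio of the list turned to -0.11 and 16 members stayed above 0, none by 25%. Over all genes the median of this bound was -0.17 and 16.6% stayed above 0, beside 20.5% of the members. Without the highest library in the *Runx1* OE total, the median was 0.02 and 44 members (56.4%) stayed above 0, beside -0.07 and 38% over all genes. No member depended on a single *Runx1* OE library for most of its signal. The highest library could make up at most 25.2% to 36.4% of a gene's *Runx1* OE total, with a median of 28.9%.

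Levels differed far more between members than between groups. Per kilobase of the canonical transcript, the median member stood at 308 normalized counts in *Runx1* OE and 278 in controls. *Mrpl42*, a mitochondrial addition of the large subunit, was the highest at 3252 and 3068 per kilobase, and *Mrpl23* the lowest at 56.8 and 52.7. As a mean per gene, *Mrpl12* was the most abundant, with 2960 normalized counts in *Runx1* OE and 2692 in controls (log2 ratio 0.14 ± 0.16, SE). Its protein forms the stalk that recruits translation factors, and it has also been described as a partner of the mitochondrial RNA polymerase. *Mrpl42* and *Mrpl51* followed, at 2521 and 2378 and at 1486 and 1442, with log2 ratios of 0.08 and 0.04. The stalk proteins *Mrpl10* and *Mrpl11* had ratios of 0.04 ± 0.15 and 0.19 ± 0.15 (SE). Across the 78 members, the ratio had a Spearman correlation of -0.30 with the mean and of 0.41 with the spread between libraries, and these points share libraries and size factors.

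Several members with known roles in the working ribosome differed little between the groups. *Mrps12*, whose bacterial counterpart sits at the decoding centre, averaged 475 and 494 normalized counts (-0.06 ± 0.15, SE). *Mrpl3*, a protein near the peptidyl transferase centre that is mutated in a form of hypertrophic cardiomyopathy, averaged 862 and 791 (0.13 ± 0.10, SE). *Mrps2* averaged 839 and 828 (0.02 ± 0.10, SE), and *Mrps7* 662 and 626 (0.08 ± 0.13, SE). Both encode small subunit proteins shared with bacteria. *Mrps16*, another of these, averaged 433 and 385 (0.17 ± 0.14, SE). *Mrpl58*, a peptidyl-tRNA hydrolase built into the large subunit that frees stalled chains, averaged 651 and 606 (0.10 ± 0.15, SE). *Mrps36*, which by its name is a member although its protein belongs to the oxoglutarate dehydrogenase complex, averaged 407 and 405 (0.01 ± 0.18, SE).

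The large and the small subunit were then set side by side. By the place of the protein in the ribosome, 51 members belong to the large subunit and 26 to the small one, with *Mrps30* and *Mrps18a* counted in the large subunit in spite of their names. The large subunit had 42 members (82.4%) above 0 and a median of 0.10, and the small one 21 (80.8%) and 0.10. The summed level was 37290 normalized counts against 34910 for the large subunit and 14310 against 13400 for the small one. Of the 45 members grouped here as having a bacterial counterpart, 37 were above 0 with a median of 0.11. Of the 32 grouped as mitochondrial additions, 26 were above 0 with a median of 0.09. *Mrpl55*, *Mrps18a* and *Mrps18b* were placed with the additions, and other placements were not tried.

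The members were also set beside genes with transcripts of like length. Over all 15151 genes with a canonical transcript length, the ratio fell with length (Spearman -0.22), so that 68.5% of genes of up to 1343 bases were above 0, 57.9% of those up to 2701 bases and 44.8% of longer ones. These bounds split the members into groups of 26. The shares of members above 0 were 84.6%, 73.1% and 88.5%, and their Spearman correlation with length was 0.11. Among short transcripts the median of the members, 0.08, was under that of all genes, 0.12. Among long ones it was 0.13 against -0.03.

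**Figure D3:**
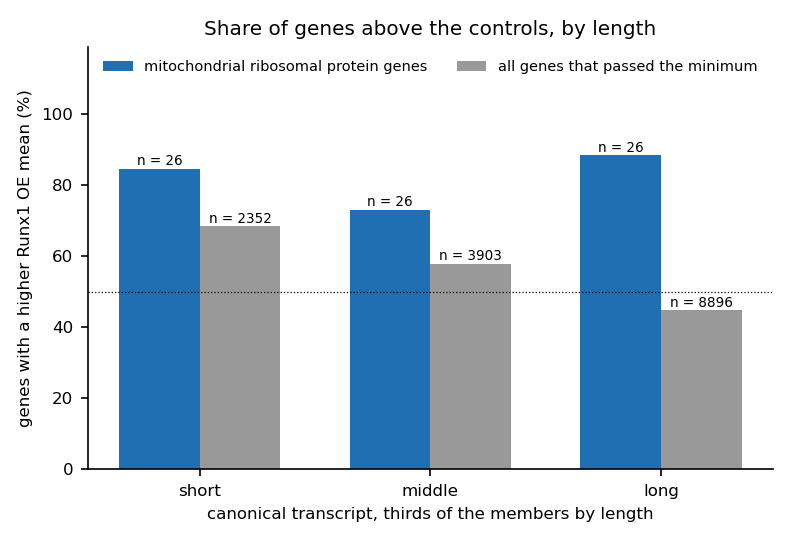
Share of genes with a higher mean in *Runx1* OE (vertical, percent) by length of the canonical transcript in GENCODE, in the length groups that hold 26 members each. Blue bars are the mitochondrial ribosomal protein genes and grey bars all genes that passed the minimum, with the number of genes above each bar and a dotted line at 50%. The grey bars fall from 68.5% to 44.8%, and the last blue bar is 88.5%.

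Some of the members share their sequence or their start with other genes. The processed pseudogene *Mrpl23-ps1* averaged 948 normalized counts over all samples, 96.1% of the sum with *Mrpl23*, which had the lowest mean of the list (38.3). Reads of the gene and its copy may have been split between them, so the level of *Mrpl23* is uncertain. Summed with the pseudogene, its log2 ratio was 0.07 in place of 0.11. *Mrpl27-ps*, *Mrpl48-ps* and *Mrps36-ps2* also had counts, with 4.89% to 36.04% of the sum with the parent gene over these and *Mrps36-ps1*. Exons of 46 members overlap exons of another annotated gene, 42 of them on the opposite strand and 6 on the same strand. Because the counting was not stated to use strand, reads within the shared bases may not have been told apart. The length of each overlap was not measured. The 32 members with no overlap had 26 above 0 and a median of 0.11.

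Of the 78 members, 14 start within 1000 bp of a protein coding gene that runs the other way. One such pair lies within the list: *Mrpl46* and *Mrps11* start 30 bp apart and encode proteins of different subunits, and their ratios were 0.16 and 0.12. The other 12 had ratios from -0.06 to 0.42, beside -0.36 to 0.46 for their neighbours, of which *Lrrc46* lay under the minimum. *Mrpl43* and *Twnk*, the helicase of mitochondrial DNA, start 56 bp apart with ratios of 0.09 and -0.27, and *Mrps12* and *Sars2*, a mitochondrial tRNA synthetase, 129 bp apart with -0.06 and 0.03. *Mrpl32* and *Psma2*, a proteasome subunit, start 54 bp apart with 0.26 and 0.13.

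The promoters of the list are known to hold sites of ETS family factors, of NRF1 and of YY1, which act on many nuclear genes for mitochondria. RefSeq windows (GRCm38.p6, 250 bases before to 50 after the start) were matched to 69 of the 78 members and to 10248 protein coding genes that passed the minimum. On either strand, CCGGAAG (ETS) was present in 26 member windows (37.7%) and 19.6% of all, GCATGCG (the core of the NRF1 site) in 8 (11.6%) and 7.19%, and AAGATGG (YY1) in 13 (18.8%) and 8.16%. The RUNX letters TGTGGT or TGCGGT were in 18 (26.1%) and 24.1%. Matches of different motifs shared bases in 16 of all windows. Members with and without the ETS letters had median ratios of 0.10 and 0.10, and with and without the RUNX letters 0.10 and 0.10. For the NRF1 core these were 0.05 and 0.10, and for YY1 0.08 and 0.10. These are descriptions of letters and not of bound sites. Of the 8 members with the highest ratios, 4 held the ETS letters and 0 any of the others, and of the 6 with a window among the 8 lowest, 2 held ETS, 2 YY1 and 1 RUNX letters.

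A few promoter windows with matches are shown as examples, in the direction of the gene, with the matched letters in capitals on whichever strand they lie. *Mrps23* (chr11:88204138-88204437, plus strand), *Mrps22* (chr9:98601630-98601929, minus) and *Mrps18c* (chr5:100798509-100798808, plus) were over 25% higher and hold 1 ETS match each. *Mrpl20* and *Mrpl14* were also over 25% higher, but their windows hold none of the letters and are not shown. *Mrpl32* (chr13:14612988-14613287, minus), with a ratio of 0.26, has 3 stretches with the NRF1 core and 1 YY1 match. *Mrps12* (chr7:28741772-28742071, minus), with a ratio of -0.06, holds 1 ETS and 1 YY1 match.
Mrps23: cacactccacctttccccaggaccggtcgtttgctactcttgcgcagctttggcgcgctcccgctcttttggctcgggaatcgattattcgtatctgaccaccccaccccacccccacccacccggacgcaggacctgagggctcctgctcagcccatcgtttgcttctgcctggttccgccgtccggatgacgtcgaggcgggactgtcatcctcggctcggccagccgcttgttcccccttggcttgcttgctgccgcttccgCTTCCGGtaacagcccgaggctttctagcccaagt
Mrps22: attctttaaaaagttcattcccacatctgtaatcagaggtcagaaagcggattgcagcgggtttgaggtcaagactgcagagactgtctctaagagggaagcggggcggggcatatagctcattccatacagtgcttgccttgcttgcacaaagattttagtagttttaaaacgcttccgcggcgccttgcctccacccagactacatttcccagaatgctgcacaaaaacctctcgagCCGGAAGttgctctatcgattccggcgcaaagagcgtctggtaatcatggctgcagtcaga
Mrps18c: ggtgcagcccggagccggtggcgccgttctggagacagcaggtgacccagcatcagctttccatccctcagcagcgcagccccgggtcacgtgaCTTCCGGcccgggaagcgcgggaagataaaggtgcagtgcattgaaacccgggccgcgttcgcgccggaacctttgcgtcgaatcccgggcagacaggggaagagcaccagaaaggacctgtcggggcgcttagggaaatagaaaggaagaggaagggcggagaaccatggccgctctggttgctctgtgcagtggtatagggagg
Mrpl32: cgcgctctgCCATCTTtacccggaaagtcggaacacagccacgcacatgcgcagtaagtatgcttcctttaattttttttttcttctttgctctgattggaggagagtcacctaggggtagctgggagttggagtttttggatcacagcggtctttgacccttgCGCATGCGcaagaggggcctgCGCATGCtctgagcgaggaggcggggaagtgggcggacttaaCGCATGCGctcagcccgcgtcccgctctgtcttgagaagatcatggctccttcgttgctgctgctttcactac
Mrps12: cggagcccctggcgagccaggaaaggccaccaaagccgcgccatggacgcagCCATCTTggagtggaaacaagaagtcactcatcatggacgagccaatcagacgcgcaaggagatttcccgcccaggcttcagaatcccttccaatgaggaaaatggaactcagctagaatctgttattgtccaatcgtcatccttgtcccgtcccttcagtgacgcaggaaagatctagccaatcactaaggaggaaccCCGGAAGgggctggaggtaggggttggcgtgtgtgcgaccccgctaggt

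Further lists cover the rest of mitochondrial gene expression. Of 5 proteins of the same ribosome that carry other names, 2 were above 0 and the median was -0.06. *Chchd1* averaged 468 and 340 normalized counts (0.46 ± 0.25, SE) and *Aurkaip1* 863 and 712 (0.28 ± 0.12, SE). *Ptcd3*, the lowest, averaged 861 and 992 (-0.20 ± 0.10, SE), and its groups could not overlap. Of 27 factors for ribosome assembly and rRNA modification, 20 were above 0, with a median of 0.05. *Malsu1* was the highest of these and the rRNA methyltransferase *Mrm1* the lowest, at -0.33 ± 0.13 (SE, means 269 and 338).

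Of 17 translation factors, 8 were above 0, with a median of -0.01 and a summed level 5.64% lower in *Runx1* OE. *Slirp*, which with *Lrpprc* protects mitochondrial mRNAs, had the highest ratio, 0.38 ± 0.26 (SE), and the ribosome recycling factor *Mrrf* the lowest, -0.23 ± 0.10 (SE, means 567 and 663). Of 20 tRNA synthetases and related enzymes, 11 were above 0. *Ears2* was the lowest at -0.67 ± 0.16 (SE, adjusted p = 0.0932), and *Fars2* was among the highest at 0.39 ± 0.10 (SE, adjusted p = 0.115). Of 13 genes for transcription and replication of mitochondrial DNA, 10 were above 0 with a median of 0.08. Those with means over 50 ran from -0.39 for *Top1mt* to 0.47 for *Tefm*. None of the genes of these lists passed an adjusted p of 0.05.

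The 15 products of mitochondrial DNA, which include the RNA of the ribosome itself, made up 36.9% of all normalized counts in *Runx1* OE and 36.7% in controls, beside 0.271% and 0.245% for the members. Of these, 4 were above 0, with a median of -0.04. The ribosomal RNAs *mt-Rnr1* and *mt-Rnr2* averaged 28601 and 36438 and 90135 and 109740 normalized counts. Their log2 ratios were -0.35 ± 0.28 and -0.28 ± 0.29 (SE). Both had the lower mean, within the error, where most transcripts for the proteins of the ribosome had the higher one. The libraries were made with oligo(dT), which selects RNA by its poly(A) tail. The means of the 2 ribosomal RNAs thus cover only the part so captured, and no protein was measured.

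**Figure D4:**
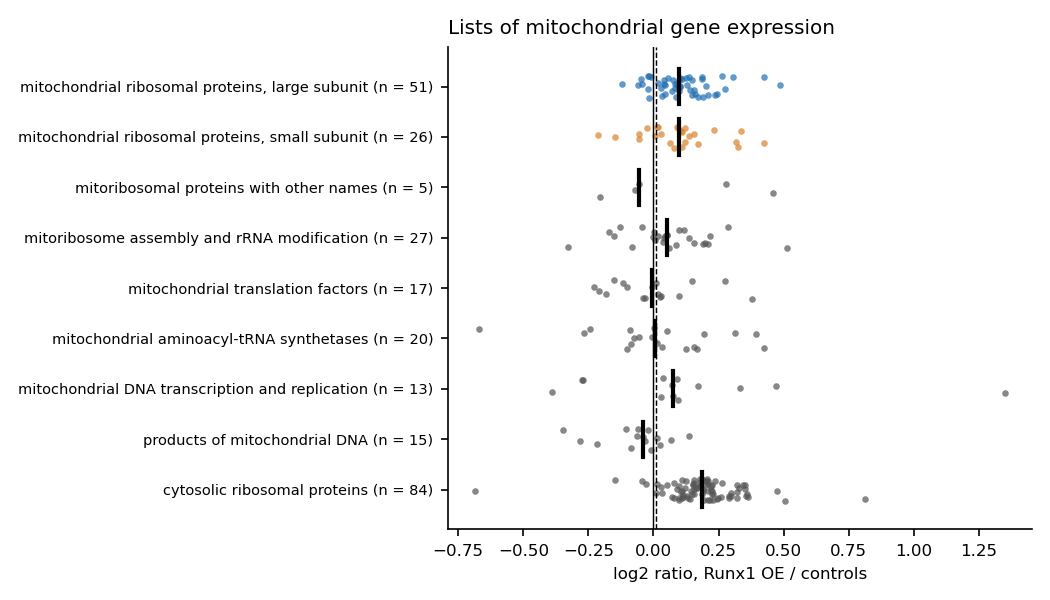
Log2 ratio (horizontal, *Runx1* OE over controls) of each gene in 9 lists (rows), with 1 point per gene and a thick bar at the list's median. *Mrps36* is left out of the subunits. The solid vertical line marks 0 and the dashed one the median of all genes, 0.01. The medians of both subunits are 0.10, that of the products of mitochondrial DNA is -0.04, and that of the cytosolic ribosomal proteins is 0.19.

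Genes named for proteins of the cytosolic ribosome, which makes the members' proteins, had a higher median than the members. The name also took in a few genes that are not parts of that ribosome, such as *Rps19bp1*, whose protein binds one, and the retrogene *Rps23rg1*. Of 84 genes, 80 (95.2%) were above 0, with a median of 0.19, and their sum was 12.9% above the controls. Of these, 10 were at least 25% higher, *Rps23rg1* included, and 1 at least 20% lower, smaller shares than the 13.9% and 10.6% of all genes. They are shorter, with a median transcript of 1100 bases against 1812 for the members, and the share above 0 among all short genes was already 68.5%. Their median SE was 0.19, against 0.13 for the members. Against the higher possible control the order turned, with a median of -0.15 and 4.76% above 0, beside -0.11 and 20.5% for the members. That bound takes more off genes with more spread between libraries, so it cannot order the lists by their ratios alone. The median spread was 0.287 on the log2 scale for the cytosolic list and 0.156 for the members. The difference between the lists was not tested.

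**Figure D5:**
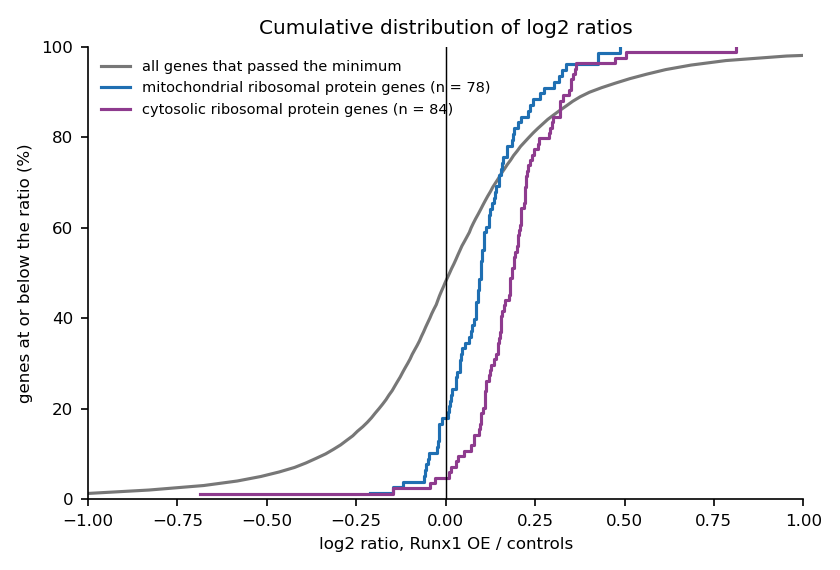
Cumulative share of genes (vertical, percent) at or below a log2 ratio (horizontal, cropped at -1 and 1) for all genes that passed the minimum (grey), the 78 mitochondrial ribosomal protein genes (blue) and the 84 cytosolic ribosomal protein genes (purple). The blue curve is steeper than the grey one and crosses 0 after 14 of its 78 genes, and the purple one after 4 of 84.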

How the data were processed

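RNA from the ventricles of 6 mice (4 *Runx1* OE, 2 Myh6-CreER controls) was grouped by the genotype in the sample titles. By the study's methods, the authors aligned reads with STAR to mm39, quantified Ensembl transcripts with Partek E/M and normalized counts by the median ratio. HISAT2 and mm9 stand in the submitters' processing notes instead. Deposited positions overlapped those on GRCm39, which is mm39, for all 18992 genes found in GENCODE M39, the 78 members included. The deposited group means and overall mean are signal values (normalized counts, that is, counts over a size factor), and the authors also deposited the geometric mean and the maximum over the samples. Deposited fold changes, their limits and p-values hold the authors' own comparison and were not used. A further 6 columns hold values for single samples under names that no label shares, so they were left out. They were not assigned by their *Runx1* values.

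The planned limma fit on values per sample was therefore not run. The planned substitute was the log2 ratio of the group means over the 15181 genes averaging 10 or more, with a mean 25% higher or 20% lower counted as a difference and no test. Chosen after seeing the data were a gamma model, the bound against the higher control, the groups that cannot overlap, and the members with pseudogenes, without exon overlaps or with transcripts of at least 1000 bases. The gamma deviance of each gene follows from the group means and the geometric mean. Its spread was moderated with squeezeVar of limma 3.58.1 (R 4.3.3), with the log2 mean as covariate, and p-values are two-sided and Benjamini-Hochberg adjusted over 15172 genes. It treats the 6 libraries as separate samples. The 9 other genes have a library at 0. It was tested on data simulated from a gamma model with the same spread, which cannot show that the model suits these data. Bounds take the group means to be arithmetic means, whose sum matched the overall mean within 0.101% for every member. The group means summed to 19199000 normalized counts in *Runx1* OE and 19871000 in controls. Read totals per library were not used here, and the number of mice limits the precision.

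Gene positions, lengths and overlaps came from GENCODE M39 (GRCm39), in which all 78 members were found, and promoters from RefSeq. Means per kilobase use the canonical transcript. Named members were the 8 highest and 8 lowest ratios, the 5 highest means and 12 members with known roles. From each further list, the highest and lowest ratios among genes averaging 50 or more were taken, except for 1 gene that is not reported here. Members and lists were chosen with earlier results of these data known. Python 3.11.15, numpy 2.4.6, pandas 2.3.3, scipy 1.17.1 and matplotlib 3.10.9 were used.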

Additional observations from a re-analysis of the deposited data

How the results depend on the processing

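Counted at 25% higher or 20% lower, 2113 of all genes were higher and 1610 lower, and 5 and 0 members. Without a minimum mean these were 3730 and 2739 of all genes, and with a minimum of 50 they were 1224 higher. At 1.5-fold they were 834 and 601, and 0 members. Scaled to equal sums of the groups, 8 members were higher, 72 were above 0, their median was 0.15 and the split of all genes was 2572 higher and 1320 lower. Without the highest library the bound gave 1259 and 2952 of all genes and 2 members. Against the higher control, 537 and 3544 of all genes passed, 0 members were higher, 16 were above 0 and their median reversed to -0.11. By this bound 12 of the 19 named members with a ratio above 0 turned negative, among them *Mrps18c* at -0.14, and without the highest library 6 did. By construction these bounds can only lower a ratio. The gamma model called 165 and 116 genes and 0 members, and groups that cannot overlap were found for 939 and 967 genes, with 1 lower member. Without members that overlap another exon, 2 were higher and 26 above 0, out of 32. Centring on the median of all genes, a pseudocount of 1, leaving out chromosomes X and Y, *Mrps36* or short transcripts, and adding pseudogenes left the median of the members between 0.09 and 0.10, with 4 or 5 at least 25% higher. No symbol was repeated and no member lay under the minimum. Of 270 alternative values of the 27 named members, 135 were identical to the main value, nearly all because the setting cannot move a single gene's ratio. Of the 135 that changed, 21 took the other sign, 12 and 6 of them by these bounds. No paired analysis was possible because the columns of values per sample carry no name that the labels share. For the same reason no replicate was left out in turn.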
